A study of Mus musculus with 32 samples.

Results

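Neurexins and neuroligins are cell adhesion proteins that face each other across the synaptic cleft. The array held 6 probes for 4 of the 5 genes considered here, out of 25697 probes for 18138 gene symbols. These were 2 probes for Nrxn2, 2 for Nrxn3, 1 for Nlgn1 and 1 for Nlgn2, taken by gene symbol, and Nlgn3 was not analysed here. The genes were selected with the difference between ethanol-treated mice and controls on these same arrays in view. That difference is therefore given for them as a description, with no p-value.

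Neurexins sit mainly in the presynaptic membrane. Each neurexin gene has separate promoters for a long alpha and a short beta form, and heavy alternative splicing sets which partners a neurexin binds. Neuroligins are their postsynaptic partners, of which Nlgn1 is found mainly at excitatory synapses, Nlgn2 at inhibitory synapses and Nlgn3 at both. Inside the cell, neurexins bind adaptor proteins of the release machinery, and neuroligins bind scaffold proteins such as PSD-95 or gephyrin.

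The FCtx of 32 female mice was measured with 1 Illumina MouseRef-8 v2.0 array per mouse. All mice were C57BL/6J x FVB/NJ F1 hybrids by their labels, whereas the methods name both directions of the cross. The 20 ethanol-treated mice had chosen freely between water and 20% ethanol in limited daily sessions over 20 days, and the 12 controls were untreated. By the methods, brains were taken 20 hours after the last session. The paper allows that the treated mice may have been in acute withdrawal then. The paper places the drinking of the treated mice in early adulthood, and ages in numbers are not given in the sources used here. The tissue was the dorsal part of a frontal slice of 2 mm, so all cell types of the cortex contributed RNA. Each of the 4 chips carried 8 arrays, at positions A to H. Chips 1 and 2 held ethanol-treated mice, chip 4 held controls, and chip 3 was shared, with 4 ethanol-treated mice at the odd positions (A, C, E, G) and 4 controls at the even ones (B, D, F, H). Treatment therefore cannot be told apart from chip outside chip 3, nor from odd or even position on chip 3.

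The median signal per array was 166 to 203 in ethanol-treated mice and 146 to 187 in controls, and each array detected 9480 to 11544 probes at a detection p-value below 0.01. The lowest value of both measures came from control mouse C66 on chip 4, so results that rest on this array are given with and without it. Among the tested probes, 10187 in all, 838 differed between ethanol-treated mice and controls at an FDR below 1% by limma, which is 8.23%, and 43.1% of these were higher in ethanol-treated mice. When arrays were scaled by their medians instead of by quantiles, 82 probes differed, and 68.3% of them were higher.

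The 6 probes are 50 bases long, and their first 30 bases are shown, 5′ to 3′, because probes of the same gene read different parts of its transcripts and did not give the same result. The sequences and coordinates are those of the deposited annotation, which names no genome build. The number after each gene is the base of its transcript at which the probe begins.
Nrxn2, base 5290: aaggccttttgtgtgtgtcgctgctgccgg
Nrxn2, base 848: gaggaggagccggcgatgtgcaccagccga
Nrxn3, base 1753: gcagatacactgcgtctagagttggatggt
Nrxn3, base 4524: ccttatctggttctgaccagtgtgtgtgta
Nlgn1, base 5421: ctgtaacagaaacctttctttccagctacc
Nlgn2, base 4857: gaccccacgatacagccacggactccaatg
The Nrxn2 probe at base 5290 lies at chr19:6509809-6509858 on the plus strand and is marked as specific to 1 isoform. The other Nrxn2 probe, at chr19:6423739-6423788 and 86.1 kb away, is marked as common to all isoforms. The Nrxn3 probes lie at chr12:90586836-90586885 (base 1753) and chr12:91571390-91571439 (base 4524), both on the plus strand, and together span 985 kb. The Nlgn1 probe lies at chr3:25330922-25330971 and the Nlgn2 probe at chr11:69636720-69636769, both on the minus strand. The annotation marks the probes of Nrxn3, Nlgn1 and Nlgn2 as designed for a gene with a single transcript. No other probe of the array had the same sequence as any of these 6. Whether each lies in a coding exon or a UTR is not given in the sources used here.

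Of the 6 probes, 4 passed the filter of detection on at least 24 of the 32 arrays and were tested, all 4 of them detected on all 32 arrays. The Nrxn2 probe at base 848 was detected on 0 arrays, with signals between 123 and 182. The Nlgn1 probe was detected on 22 arrays, 13 of the 20 from ethanol-treated mice and 9 of the 12 from controls. Over the tested probes of these genes, each array read a probe with a median of 31.5 to 41 beads. The median standard error over beads came to 0.06 to 0.09 on the log2 scale, smaller than the SD between mice, which lay between 0.13 and 0.30.

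**Figure D1:**
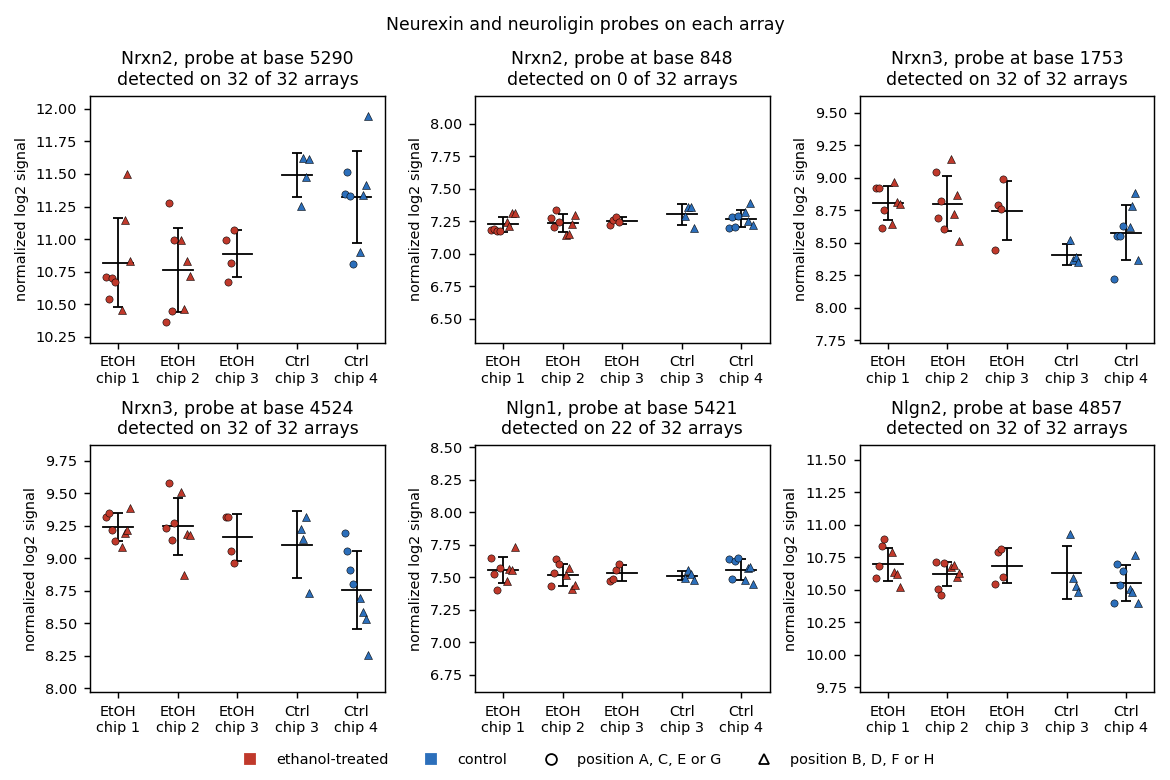
Normalized log2 signal of the 6 neurexin and neuroligin probes (vertical axis, the same height of log2 units in each panel) for each array, by treatment and chip (horizontal axis; EtOH, ethanol-treated; Ctrl, control). Points are single mice and black bars are the mean ± SD of 8 mice, or of 4 mice on chip 3. Nrxn2 at base 5290 is lower on all 3 chips with ethanol-treated mice, and Nrxn3 at base 4524 is lowest in the even positions of chip 4.

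Nrxn2 encodes a presynaptic neurexin, and its detected probe was lower in ethanol-treated mice. Normalized log2 levels at base 5290 ran from 10.36 to 11.50 with a median of 10.77 in the 20 ethanol-treated mice, and from 10.81 to 11.95 with a median of 11.38 in the 12 controls. The groups overlapped, but 10 ethanol-treated mice lay below the lowest control, 1 of 20 lay above the control median, and all 12 controls lay above the ethanol median. Mean levels were 10.81 ± 0.30 (SD, n = 20) and 11.38 ± 0.31 (SD, n = 12), a log2 difference of -0.57 (standard error 0.10) or 0.673-fold. In size, this difference was at percentile 99.9 of all tested probes. Nothing is read from this rank, because the genes were chosen on this comparison. The highest control value, 11.95, was that of mouse C66, and without it the log2 difference was -0.52. Before normalization, the signal of that mouse at this probe, 2069, was the lowest of the 12 controls.

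The Nrxn2 probe was lower with ethanol both within chip 3 and between chips. On chip 3, the ethanol-treated mice gave log2 levels of 10.99, 10.67, 10.82 and 11.07, in order of position. The controls on that chip gave 11.26, 11.62, 11.48 and 11.61, in the same order. All 4 ethanol-treated mice lay below all 4 controls, with a log2 difference of -0.60 (standard error 0.19). Of all tested probes, 15.2% showed no overlap between these same arrays, in either direction. Between the ethanol-treated mice of chips 1 and 2 and the controls of chip 4, the log2 difference was -0.54 (standard error 0.12), with -0.54 at odd and -0.53 at even positions. Without control mouse C66 it was -0.44, and -0.35 at even positions. The difference on chip 3 minus that between chips was -0.07 (95% interval -0.53 to 0.39), an interval too wide to show that the 2 differences were alike.

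Comparisons of Nrxn2 other than ethanol against control gave smaller values and did not pass the test. Odd minus even positions on chips 1, 2 and 4 gave a log2 difference of -0.15 (95% interval -0.38 to 0.08, adjusted p = 0.377 by limma), and -0.09 without mouse C66. By chip, it was -0.33 on chip 1 (-0.72 to 0.07, adjusted p = 0.532 by limma), 0.02 on chip 2 and -0.15 on chip 4. Odd positions are those of the ethanol-treated mice on chip 3, and the part of position in the difference there was not tested. Chip 2 minus chip 1 among ethanol-treated mice gave -0.06 (-0.34 to 0.22, adjusted p = 0.868 by limma). At odd positions, ethanol-treated mice of chip 3 minus those of chips 1 and 2 gave 0.18 (-0.17 to 0.52, adjusted p = 0.774 by limma). At even positions, controls of chip 3 minus controls of chip 4 gave 0.09 (-0.30 to 0.49, adjusted p = 0.823 by limma), and 0.28 without mouse C66.

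**Figure D2:**
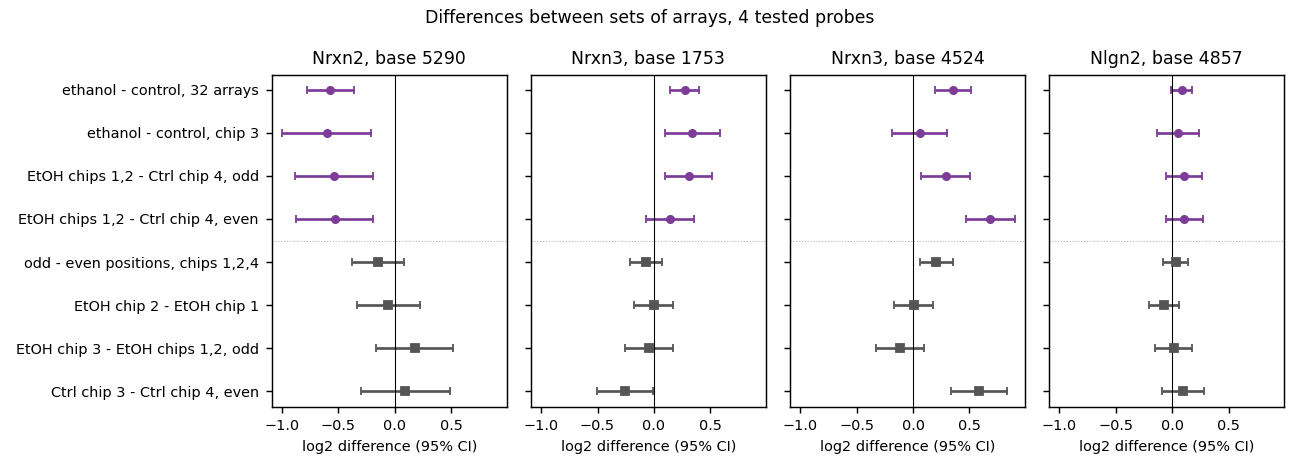
Log2 differences between sets of arrays (horizontal axis, with 95% intervals from limma) for the 4 tested probes, 1 panel each. Purple circles are ethanol-treated minus control, over all 32 arrays, on chip 3, and between chips at odd and even positions. Grey squares compare arrays of the same treatment, or odd with even positions within chips. With all arrays, the Nrxn2 differences with ethanol lie between -0.60 and -0.53, whereas those of Nrxn3 at base 4524 range from 0.06 on chip 3 to 0.69 at even positions between chips.

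The Nrxn2 probe common to all isoforms gave levels near background in both groups. Its log2 levels ran from 7.14 to 7.34 in ethanol-treated mice and from 7.20 to 7.39 in controls, with the probe detected in neither group. The lower level of Nrxn2 in ethanol-treated mice thus rests on 1 probe for 1 isoform.

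Markers of excitatory cortical neurons moved in the same direction as Nrxn2. Of the 5 markers listed, Slc17a7, Tbr1 and Nrgn were tested, while the other markers did not pass the detection filter. All 3 tested markers were lower in ethanol-treated mice at an FDR below 1% by limma, where 4.68% of all tested probes were lower. The mean log2 level of these 3 ran from 11.07 to 11.48 in ethanol-treated mice and from 11.34 to 11.66 in controls. Their median log2 difference was -0.28 over all arrays, -0.50 on chip 3 and -0.26 between chips. The markers of GABAergic neurons (5 of 6 tested), oligodendrocytes (6 of 6) and microglia (6 of 6) gave 0 called genes, with 3, 1 and 1 genes at an unadjusted p below 0.05 and median log2 differences of -0.01, -0.04 and -0.04. The astrocyte markers (4 of 5 tested) had a median of 0.10, with 1 gene, Aqp4, called higher. Markers of olfactory bulb (2 of 4) and striatum (3 of 6), which lie near the slice, had 0 called genes and 0 at an unadjusted p below 0.05. Of all 10187 tested probes, 3235 reached an unadjusted p below 0.05. On chip 3, the median log2 differences were 0.16 for GABAergic neurons, 0.32 for astrocytes, -0.40 for oligodendrocytes, 0.03 for microglia, 0.37 for olfactory bulb and -0.21 for striatum. The part of any of these in the Nrxn2 and Nrxn3 results was not tested, and in tissue RNA fewer cells of a type and less RNA per cell cannot be told apart.

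Nrxn3, the other presynaptic neurexin measured, was higher in ethanol-treated mice at both of its probes, but the probes differed in where the difference lay. At base 4524, log2 levels ran from 8.87 to 9.58 with a median of 9.22 in ethanol-treated mice and from 8.26 to 9.31 with a median of 8.86 in controls. All 20 ethanol-treated mice lay above the control median, and 6 controls lay below the lowest ethanol-treated mouse. Means were 9.22 ± 0.17 (SD, n = 20) and 8.87 ± 0.32 (SD, n = 12), a log2 difference of 0.35 (standard error 0.08) or 1.28-fold. Mouse C66 again gave the extreme control value, 8.26, and without it the log2 difference was 0.30.

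On chip 3, the difference at base 4524 was close to 0. The ethanol-treated mice there gave log2 levels of 9.31, 9.31, 9.06 and 8.96 in order of position, and the controls 9.22, 9.14, 9.31 and 8.73. The sets overlapped, with control C56 below all 4 ethanol-treated mice and a log2 difference of 0.06 (standard error 0.12). Between chips, it was 0.49 (standard error 0.07), made up of 0.29 at odd and 0.69 at even positions. Without mouse C66 it was 0.44, and 0.60 at even positions. The difference on chip 3 minus that between chips was -0.43 (95% interval -0.72 to -0.14). It ranged from -0.55, without control mouse C56, to -0.36 when the arrays of chip 3 and that of mouse C66 were left out in turn.

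At base 4524, controls also differed from other controls. At even positions, the 4 controls of chip 4 gave log2 levels of 8.70, 8.59, 8.53 and 8.26 (mice C63, C64, C65 and C66), all below the lowest of the 4 controls of chip 3. Chip 3 controls minus these was 0.59 (standard error 0.12, adjusted p = 0.0035 by limma), where the difference between treatments was 0.35 over all arrays. Among tested probes, 1.99% were called in that comparison and 13.5% showed no overlap between its arrays. Without mouse C66 the log2 difference was 0.50 (adjusted p = 0.019 by limma), and without any 1 array of C52, C54, C55 or C66 it no longer passed an FDR of 1%. Within chip 4, odd minus even positions gave 0.47 (adjusted p = 0.0381 by limma), against 0.03 on chip 1 and 0.12 on chip 2. Averaged over these 3 chips, the log2 difference was 0.21 (adjusted p = 0.0409 by limma), and 0.18 (adjusted p = 0.083 by limma) without mouse C66. Without that mouse, the even controls of chip 4 had a mean of 8.60 instead of 8.52, against 8.99 at odd positions.

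At the same probe, ethanol-treated mice of different chips gave smaller differences, 0.01 (95% interval -0.17 to 0.18, adjusted p = 0.984 by limma) for chip 2 minus chip 1. Chip 3 minus chips 1 and 2, at odd positions, gave -0.12 (-0.33 to 0.10, adjusted p = 0.755 by limma).

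At base 1753 of Nrxn3, the difference was present within chip 3. Over all arrays, log2 levels ran from 8.45 to 9.14 with a median of 8.80 in ethanol-treated mice and from 8.22 to 8.89 with a median of 8.54 in controls. Of the 20 ethanol-treated mice, 18 lay above the control median, and 5 controls lay below the lowest ethanol-treated mouse. Means were 8.79 ± 0.18 (SD, n = 20) and 8.52 ± 0.19 (SD, n = 12), a log2 difference of 0.27 (standard error 0.06) or 1.21-fold, and 0.26 without mouse C66. On chip 3, the ethanol-treated mice gave 8.45, 8.79, 8.76 and 8.99 in order of position, and the controls 8.52, 8.36, 8.39 and 8.35. All ethanol-treated mice except A46 lay above the highest control there, and the log2 difference was 0.34 (standard error 0.12). Between chips it was 0.23 (standard error 0.07), with 0.31 at odd and 0.14 at even positions. Without mouse C66 it was 0.18, and 0.05 at even positions. The difference on chip 3 minus that between chips was 0.11 (95% interval -0.17 to 0.40).

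In the controls of chip 3 minus chip 4, base 1753 gave -0.26 (95% interval -0.50 to -0.01, adjusted p = 0.191 by limma), opposite in sign to base 4524 on the same arrays. Without mouse C66 the difference between these controls was -0.36 at base 1753. Odd minus even positions gave -0.07 (-0.21 to 0.07, adjusted p = 0.546 by limma), and -0.10 without that mouse.

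Within an array, the log2 value at base 4524 minus that at base 1753 had a mean of 0.43 ± 0.23 (SD, n = 20) with ethanol against 0.35 ± 0.44 (SD, n = 12) without. Probe levels cannot be compared with each other, but the shift of this quantity between sets of arrays can. It averaged 0.70 ± 0.23 (SD, n = 4) in controls of chip 3, 0.50 ± 0.34 (SD, n = 4) in odd controls of chip 4 and -0.15 ± 0.18 (SD, n = 4) in even controls of chip 4. In ethanol-treated mice it was 0.44, 0.44 and 0.42 on chips 1, 2 and 3. This quantity was chosen after the values were seen and is not tested.

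**Figure D3:**
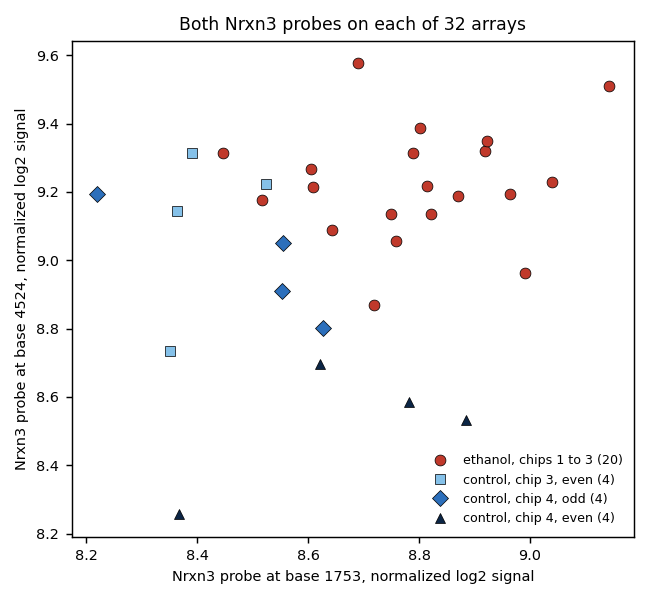
Normalized log2 signal of the Nrxn3 probe at base 4524 (vertical axis) against that at base 1753 (horizontal axis) on each of the 32 arrays, 1 point per mouse. Ethanol-treated mice lie to the upper right, 3 of the 4 controls of chip 3 lie at the heights of the ethanol-treated mice while all 4 lie at 8.52 or lower at base 1753, and the 4 controls at even positions of chip 4 lie lowest at base 4524, at 8.26 to 8.70.

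For the postsynaptic neuroligins, the differences over all arrays were smaller than those of the tested neurexin probes, whereas on chip 3 that of Nlgn2 was near the value of Nrxn3 at base 4524. For Nlgn2, the neuroligin of inhibitory synapses, log2 levels ran from 10.46 to 10.89 with a median of 10.66 in ethanol-treated mice and from 10.40 to 10.93 with a median of 10.54 in controls. The groups overlapped over most of their range, and 17 of 20 ethanol-treated mice lay above the control median. Means were 10.66 ± 0.12 (SD, n = 20) and 10.58 ± 0.16 (SD, n = 12), a log2 difference of 0.09 with a 95% interval from -0.01 to 0.18, and 0.07 without mouse C66. On chip 3 it was 0.05 (standard error 0.09), where the ethanol-treated mice gave 10.55, 10.79, 10.81 and 10.60 and the controls 10.93, 10.59, 10.53 and 10.48 in order of position. Between chips it was 0.11 (standard error 0.06), and 0.08 without mouse C66. None of the comparisons of Nrxn2 other than ethanol against control passed the test for Nlgn2 either. The largest were 0.11 for odd minus even positions on chip 1 (adjusted p = 0.682 by limma) and 0.10 between controls of chips 3 and 4 (adjusted p = 0.571 by limma). For Nlgn1, the neuroligin of excitatory synapses, log2 levels ran from 7.40 to 7.73 in ethanol-treated mice and from 7.45 to 7.65 in controls, a difference of -0.01 (standard error 0.03). As its probe was detected on 22 of 32 arrays, a difference in Nlgn1 may not have been detectable.

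Over these genes, 3 of the 4 tested probes passed an FDR of 1% over the 32 arrays, where 8.23% of all probes did, and nothing is read from this count because the genes were chosen on this comparison. It was 1, Nrxn2, with median scaling, where 0.805% of all probes passed, and with chip as a random block, where 0.707% did. It was 0 with chip as a fixed block, which leaves the comparison to the 8 arrays of chip 3 and where 0.137% of all probes passed. The counts over all probes thus fell under these settings too. On chip 3 the count was 0, where 1.32% of all probes passed, and between chips it was 2 (Nrxn2 and Nrxn3 at base 4524), where 18% did. An unadjusted p below 0.05 on chip 3 was reached by 2 of the 4, and by 2283 of all 10187 probes. In comparisons other than ethanol against control, 0 of 4 probes passed for odd minus even positions, where 5.83% of all probes did. An unadjusted p below 0.05 was reached there by 1 of 4, and by 3096 of all probes. The count was 0 for chip 2 minus chip 1 (0.461% of all probes) and 0 for ethanol-treated mice of chip 3 minus chips 1 and 2 (0% of all probes). In both, 0 of the 4 reached an unadjusted p below 0.05, against 1841 and 1130 of all probes. For controls of chip 3 minus chip 4 the count was 1, Nrxn3 at base 4524, where 1.99% of all probes passed. At an FDR below 10%, 1 probe passed for odd minus even positions, where 23.1% of all probes did, and 2 on chip 3, where 11% did. The difference on chip 3 minus that between chips is made of the comparison on which the genes were chosen, so nothing is read from its counts either. They were 0 at an FDR below 1% (5.71% of all probes) and 1 at an FDR below 10% (20.3%).

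No pair of the 4 tested probes passed the test for varying together from mouse to mouse. After each probe was centred within its 8 sets of chip, treatment and position, Pearson correlations over 32 arrays ranged from -0.31 to 0.27 for the 6 pairs. The largest in size was that of Nrxn2 with Nlgn2 (r = -0.31, permutation p = 0.114, adjusted p = 0.427; rho = -0.29, permutation p = 0.145, adjusted p = 0.694). It was -0.30 without the 2 arrays farthest from the median of Nrxn2. The Nrxn3 probes correlated at r = 0.10 (permutation p = 0.661, adjusted p = 0.793; rho = 0.07, permutation p = 0.743, adjusted p = 0.743), and at -0.06 without the 2 farthest arrays.

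The genes most like single members over the same centred arrays are given as a description across 32 arrays that share chips and scaling. They have the highest r of all tested probes, so values above those of the member pairs follow from that selection. Their correlations were not repeated without outlying arrays. By Pearson r, Nrxn2 was most like Cacnb3, a calcium channel beta subunit (r = 0.91, rho = 0.85). Next were Zmiz2 (r = 0.89, rho = 0.84) and Crmp1, a collapsin response mediator protein (r = 0.88, rho = 0.90). The log2 differences of these genes between treatments were -0.32, -0.33 and -0.28. Nrxn3 at base 4524 was most like Grik1, a kainate receptor subunit (r = 0.78, rho = 0.83), and Terf2, a telomere binding protein (r = 0.77, rho = 0.81). Sv2a, a synaptic vesicle protein, came next (r = 0.75, rho = 0.76). The log2 differences of these genes between treatments were 0.03, 0.13 and 0.19. Genes that closely followed Nlgn2 were Med25, a subunit of the Mediator complex (r = 0.72, rho = 0.71), and Adam11 (r = 0.71, rho = 0.65), with log2 differences of 0.16 and -0.0013.

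Genes around neurexins and neuroligins were examined by role, 87 in all, of which 74 had a probe and 51 a tested probe. By the probe with the lowest p of each gene, 8 genes differed between ethanol-treated mice and controls at an FDR below 1% by limma, adjusted over all tested probes. They were 6 higher and 2 lower, or 15.7% of the 51, where 9.82% of all genes passed, 4.01% higher and 5.8% lower. At an FDR below 10%, 21 of the 51 passed, against 29% of all genes. The median log2 difference was 0.04 over these genes and -0.01 over all genes. The 43 genes that did not pass had log2 differences between -0.24 and 0.25. A fixed block for chip leaves the comparison to chip 3, and 1 gene passed then, as did 1 with median scaling. The count was 6 with normexp background, with all probes of the array, with the probes detected on all arrays and with position as a covariate. Without mouse C66, 5 passed, and Apba2, Dlgap4 and Ntrk3 did not (adjusted p = 0.0133, 0.0101 and 0.0182 by limma).

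**Figure D4:**
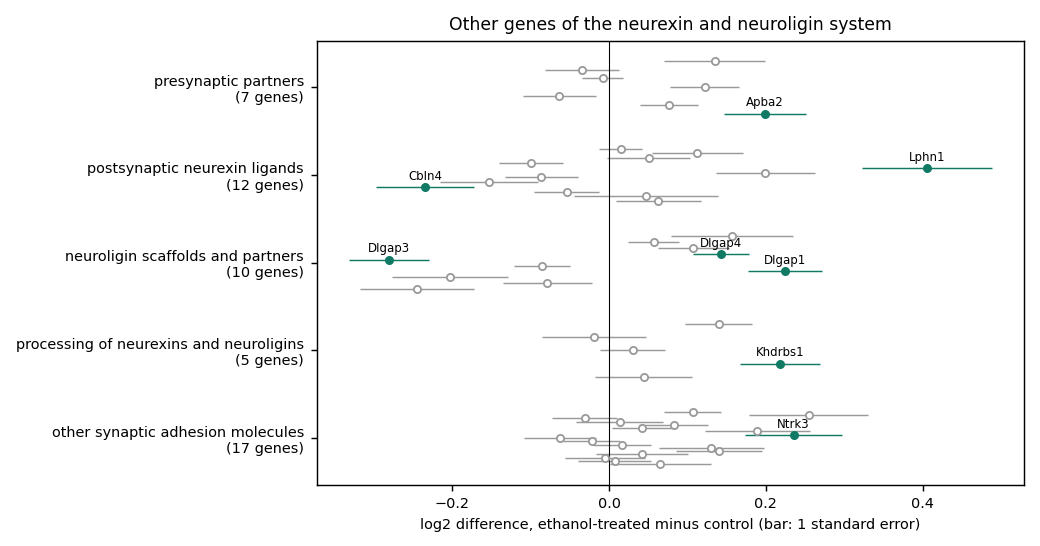
Log2 difference between ethanol-treated mice and controls (horizontal axis, with bars of 1 standard error) for 51 genes around neurexins and neuroligins, in rows by role. Filled green points are the 8 genes at an FDR below 1% by limma, and open grey points are the 43 others. Lphn1 has the highest value, 0.41, and Dlgap3 the lowest, -0.28.

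Among presynaptic partners, 1 of 7 tested genes was higher and 0 lower. Apba2, an adaptor protein that binds the inner end of neurexins, had a mean of 9.26 ± 0.17 (SD, n = 20) with ethanol against 9.06 ± 0.12 (SD, n = 12) without. It was higher by 0.20 on the log2 scale (adjusted p = 0.0076 by limma), with a value above 0 at 1 of its 2 probes and a log2 difference of 0.03 on chip 3. It did not pass with normexp background (adjusted p = 0.0113 by limma), all probes (0.0178) or position as a covariate (0.0112).

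Of 12 postsynaptic or secreted ligands of neurexins other than neuroligins, 1 was higher and 1 lower. Lphn1, a latrophilin receptor, had a mean of 10.29 ± 0.26 (SD, n = 20) with ethanol against 9.89 ± 0.22 (SD, n = 12) without, a log2 difference of 0.41 (adjusted p = 0.0010 by limma), and of 0.36 on chip 3. However, Lphn1 also differed between odd and even positions within chips, by 0.34 (adjusted p = 0.0029 by limma), and odd positions are those of the ethanol-treated mice on chip 3. Cbln4, a secreted cerebellin, was lower, with a log2 difference of -0.23 (adjusted p = 0.0079 by limma) and of -0.06 on chip 3. It did not pass with normexp background (adjusted p = 0.0138 by limma), all probes (0.0202) or position as a covariate (0.0142).

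Among scaffolds and other partners of neuroligins, 2 of 10 genes were higher and 1 lower, all 3 of them of the Dlgap family that links PSD-95 to Shank proteins. Dlgap3 had a mean of 8.46 ± 0.13 (SD, n = 20) with ethanol against 8.74 ± 0.17 (SD, n = 12) without, and 0 of 20 ethanol-treated mice lay above the control median. Its log2 difference was -0.28 (adjusted p = 0.00037 by limma), and -0.51 on chip 3. It was the 1 gene of the 51 that passed with chip as a fixed block (adjusted p = 0.0069 by limma), but not with position added to that block (-0.35, adjusted p = 0.15). Its adjusted p was at most 0.0297 in every other alternative tried, the highest with median scaling. Dlgap1 was higher by 0.22 (adjusted p = 0.0012 by limma), with 0.21 on chip 3, and passed with median scaling. Dlgap4 was higher by 0.14 (adjusted p = 0.0055 by limma), with values above 0 at 2 of its 3 probes and 0.02 on chip 3. Mean levels with and without ethanol were 7.84 and 7.61 for Dlgap1, and 7.82 and 7.68 for Dlgap4. These lay not far above the 7.14 to 7.39 of the undetected Nrxn2 probe. With normexp background the log2 differences were larger, 0.75 for Dlgap1 and 0.46 for Dlgap4.

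Of the 5 genes that splice or cleave neurexins and neuroligins, 1 was higher. Khdrbs1, which encodes the splicing regulator Sam68, was higher by 0.22 (adjusted p = 0.0035 by limma), with all 20 ethanol-treated mice above the control median, but its log2 difference was -0.10 on chip 3. Among 17 other synaptic adhesion molecules 1 was higher, Ntrk3, a neurotrophin receptor that also binds across the synapse. Its log2 difference was 0.24 (adjusted p = 0.0075 by limma), with 0.24 on chip 3, and it too differed between odd and even positions (0.28, adjusted p = 0.00088 by limma). It did not pass with all probes (adjusted p = 0.019 by limma) or with position as a covariate (0.0149).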

How the data were processed

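The authors deposited bead summary values that are not normalized. As deposited, the intensity is the mean signal of a probe's beads on a linear scale. Other values that the authors deposited per probe and array are the bead number, the standard error over beads and a detection p-value that compares the signal with that of control beads. Per the labels the authors used lumi and limma, and background handling before deposit is not given in the sources used here. Here, signals were variance-stabilized and quantile-normalized to a log2 scale, in R 4.3.3 with data.table (version 1.17.8), and probes with a detection p-value below 0.01 in 24 or more of the 32 arrays were compared with limma 3.58.1 and Benjamini-Hochberg adjustment over the 10187 probes tested. Ethanol was compared with control without covariates, and the other comparisons used 1 mean for each of the 8 sets of chip, treatment and position. Correlations were tested by permutation within these sets (100000 resamples, two-sided) in Python 3.11.15 with scipy 1.17.1. The fits were also run on simulated data with independent noise for each array. That noise held no chip or position effects, so nothing is read from it about such effects here.

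Members and gene lists were chosen with earlier results of these data known. Named genes are all members, the 3 probes most correlated with each, and per role up to 3 called partner genes. Some genes that these rules or lists cover are not reported here. Alternatives were another transform (log2), normexp background, median scaling, other filters, an FDR of 10%, chip and position terms, and leaving out arrays. Leaving out mouse C66 at even positions between chips was chosen after seeing the data. Each mouse gave 1 array, and the number of arrays limits the precision.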

Additional observations from a re-analysis of the deposited data

How the results depend on the processing

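No paired analysis was possible because ethanol-treated mice and controls share no mouse numbers and no label pairs them. Counts below are of the 4 member probes or the 51 partner genes at an FDR below 1%. Over 32 arrays, the count of member probes was 3, and it was 1 with median scaling, 0 with chip as a fixed block, 1 with chip as a random block and 0 with chip and position. The partner count of 8 became 1, 1, 1 and 0 under the same settings, and 21 at an FDR below 10% and 5 without control mouse C66. That looser threshold also gave 2 member probes on chip 3, 1 for odd minus even positions and 1 for the difference on chip 3 minus that between chips, each 0 at 1%. With only the arrays of the comparison, chip 3 gave 1. For controls of chip 3 minus chip 4 the count of 1 became 0 with all probes of the array, and ranged from 0 to 1 when arrays were left out in turn. For the difference on chip 3 minus that between chips, leaving out arrays gave 0 to 1.

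The Nrxn3 value at base 4524 fell from 0.35 to 0.058 with chip as a fixed block and turned to -0.15 with position added, where Apba2 (-0.058), Cbln4 (0.076), Khdrbs1 (-0.088) and Ntrk3 (-0.031) also changed sign. Khdrbs1 was -0.10 with chip alone. With normexp background, the Nrxn3 values over 32 arrays rose from 0.35 to 0.48 at base 4524 and from 0.27 to 0.41 at base 1753. That of Nrxn2 was -0.57 under both settings. With median scaling, chip 2 minus chip 1 turned to 0.078 for Nrxn2, 0.092 for Nrxn3 at base 1753 and 0.057 for Nlgn2. The same scaling moved the median of all probes by 0.13 for controls of chip 3 minus chip 4. When single arrays were left out in turn, small differences that did not pass changed sign: controls of chip 3 minus chip 4 ranged from -0.074 to 0.28 for Nrxn2 and from -0.0014 to 0.17 for Nlgn2, ethanol-treated mice of chip 3 minus chips 1 and 2 from -0.13 to 0.052 for Nrxn3 at base 1753 and from -0.029 to 0.059 for Nlgn2, and the difference on chip 3 minus that between chips from -0.16 to 0.0037 for Nrxn2 and from -0.10 to 0.045 for Nlgn2. Centred within treatment only, the correlations of Nrxn3 at base 4524 were -0.18 with base 1753 and 0.062 with Nlgn2. The cause of these changes was not tested. The member probe differences over 32 arrays kept their direction under every other alternative tried.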
